A study of Mus musculus with 16 samples.

Results

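Fos, Fosb, Fosl2, Jun, Junb and Jund encode subunits of the transcription factor AP-1, and their transcripts were examined in brain tissue of 16 mice. The genes were selected by name, with earlier results of these data known. Of them, 6 of 6 were found among the 40481 genes listed and among the 14949 genes with enough counts to be tested. The study asked how the brain transcriptome of old mice responds to adropin, a small secreted peptide. Male C57BL mice (C57BL/6J in the study's text) aged 18 months were acclimated for 2 weeks and divided into groups of 15 matched for weight, of which 8 adropin-treated and 8 control samples were sequenced. The adropin group received adropin(34-76), the putative secreted part of the peptide, by a daily intraperitoneal injection at 90 nmol/kg/d in saline with bovine serum albumin. The saline group received the same diluent without peptide, so that both groups were handled and injected daily. Behavioral testing began after 2 weeks of injections, with treatment continuing, and mice of both groups were fasted for 6 h before brain tissue was collected. Each mouse is named below by the 2 numbers that make up its label.

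AP-1 binds DNA as a dimer of basic leucine zipper proteins. FOS proteins pair with JUN proteins and not with each other, whereas JUN proteins also pair among themselves. In neurons Fos, Fosb and Junb are immediate early genes, transcribed within minutes of synaptic activity or growth factor signalling from transcription factors already present in the cell, and their messages are short lived. Fosl2 and Jun also respond to stimulation but more slowly or from a higher resting level, and Jund is expressed steadily in most tissues. Fos protein and RNA are widely used as a record of recent neuronal activity.

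The promoters of the rapidly induced members are shown because calcium and cyclic AMP signalling reaches such genes through the cyclic AMP response element, which the factor CREB binds. The sequences are RefSeq's on GRCm38.p6, read 5′ to 3′ on the strand of the gene over the 250 bases before its RefSeq transcription start, and capitals mark a matching motif. The windows are chr12:85473640-85473889 for Fos (plus strand), chr7:19310046-19310295 for Fosb, chr8:84978749-84978998 for Junb and chr4:95052223-95052472 for Jun (the last 3 on the minus strand).
Fos: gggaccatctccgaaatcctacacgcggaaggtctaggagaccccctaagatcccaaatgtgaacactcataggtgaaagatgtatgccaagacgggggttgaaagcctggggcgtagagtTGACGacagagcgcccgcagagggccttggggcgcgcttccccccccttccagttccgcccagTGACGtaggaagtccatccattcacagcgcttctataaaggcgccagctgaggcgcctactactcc
Fosb: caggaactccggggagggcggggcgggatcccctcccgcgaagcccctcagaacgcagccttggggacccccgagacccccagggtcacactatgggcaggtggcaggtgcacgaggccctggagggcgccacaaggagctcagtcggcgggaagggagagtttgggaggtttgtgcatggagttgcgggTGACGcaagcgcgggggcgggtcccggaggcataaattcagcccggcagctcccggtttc
Junb: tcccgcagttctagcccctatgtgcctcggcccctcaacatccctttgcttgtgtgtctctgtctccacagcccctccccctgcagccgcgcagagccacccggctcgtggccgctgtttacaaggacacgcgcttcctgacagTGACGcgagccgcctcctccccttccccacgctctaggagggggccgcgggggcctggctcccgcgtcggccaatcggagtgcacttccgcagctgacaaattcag
Jun: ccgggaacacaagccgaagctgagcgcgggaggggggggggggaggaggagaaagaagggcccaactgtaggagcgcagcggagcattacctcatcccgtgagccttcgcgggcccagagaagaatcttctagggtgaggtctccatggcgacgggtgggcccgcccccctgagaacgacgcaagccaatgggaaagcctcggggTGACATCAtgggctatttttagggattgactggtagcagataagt
The core site TGACG of the cyclic AMP response element (searched on both strands, and contained in the full site) occurred in Fos from 129 to 125 and from 66 to 62 bases before the start, in Fosb from 60 to 56 and in Junb from 106 to 102. It was present in 17.8% of the 32851 mouse promoter windows of the same length. The full site TGACGTCA, found in 1.55% of windows, was in none of the 6 members. The Jun window held TGACATCA from 45 to 38 bases before the start, a form of the AP-1 site through which JUN proteins can act on the Jun gene, and 2.93% of windows held it on either strand. The AP-1 site proper (TGACTCA or TGAGTCA, 4.46% of windows) and the core of the serum response element (1.47% of windows) had no match in any of the 6 windows. Sequence more than 250 bases before the start was not searched, so a missing match does not show that the gene lacks the site. The windows of Fosl2 and Jund held none of the motifs searched, and the RefSeq starts behind them lie 671 and 1210 bases from the starts in the GENCODE annotation. For Fos and Jun the starts were the same, and for Fosb and Junb they differed by 6 and 30 bases. These matches describe the letters in the windows, and no binding was measured.

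The levels of 4 of the 6 genes were lower in the adropin group at an unadjusted p below 0.05, namely Fos, Fosb, Fosl2 and Junb, and all 6 had a log2 fold change below 0. Fos, 2.00-fold lower, showed the largest difference, followed by Junb, Fosb and Fosl2, while Jun and Jund were 1.13-fold and 1.11-fold lower without passing the test. Across all genes tested, 2.13% were lower and 1.86% higher at an unadjusted p below 0.05 in edgeR's quasi-likelihood test. The cut-off of a fold change above 1.5 with an unadjusted p below 0.05 was passed by Fos and Junb, and 0.308% of all genes passed it in this direction. When the first number of the labels was fitted as a block, 0 of the 6 passed it, and 0 had an unadjusted p below 0.05 (edgeR, unadjusted p = 0.107 for Fos, 0.0797 for Junb, 0.174 for Fosb and 0.702 for Fosl2). None of the 6 had an adjusted p below 0.05, each being at 0.874, and this held for 0.0% of all genes (0 of 14949 in edgeR, with 596 at an unadjusted p below 0.05, 0 in limma-voom and 5 in DESeq2). In bulk brain tissue, fewer cells expressing a gene and less RNA per cell cannot be told apart. The study named Fos, Fosb and Junb as AP-1 network genes from these same mice, so their direction is not independent evidence.

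**Figure D1:**
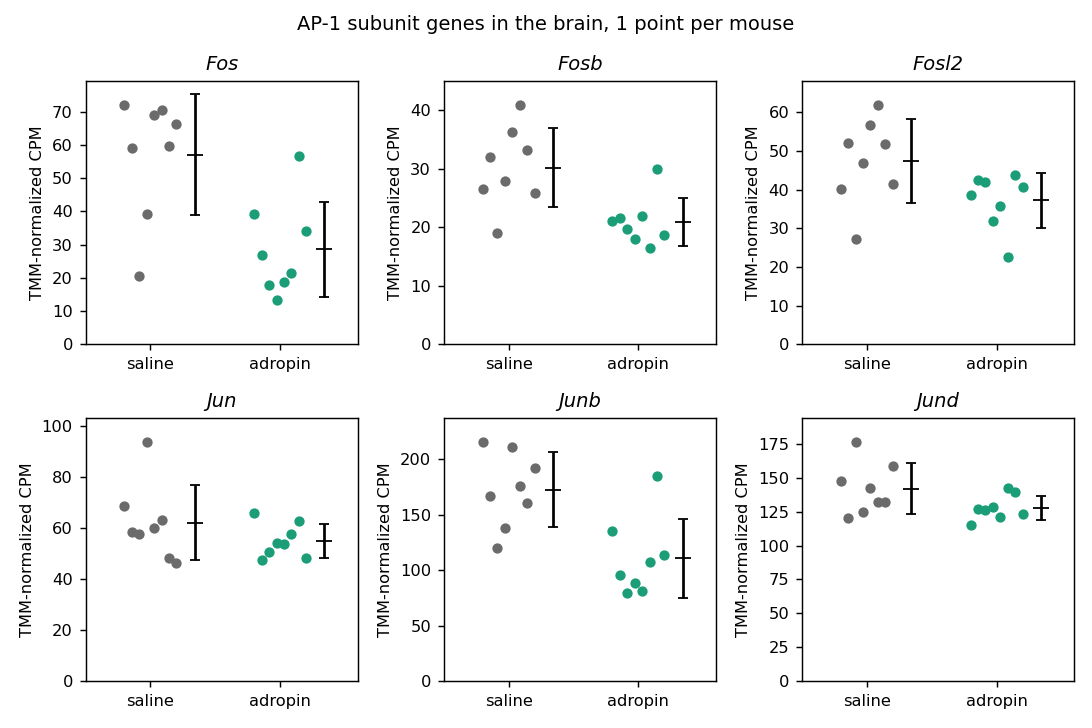
TMM-normalized CPM (CPM scaled by the trimmed mean of M values) of the 6 AP-1 subunit genes on linear axes from 0, with 1 point per mouse (8 saline in grey, 8 adropin in green) and the mean ± SD in black beside each group. Every group pair overlaps, and in the Fos panel 1 saline mouse sits at 20.4 and 1 adropin mouse at 56.8.

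Fos, the founding FOS gene, lies on chromosome 12 of GRCm38 from 85473890 to 85477273 on the plus strand. Its normalized count, in CPM (counts scaled to a common library total) adjusted by the trimmed mean of M values (TMM), was 13.4 in the lowest, 24.2 in the median and 56.8 in the highest adropin mouse. In saline mice the lowest value was 20.4, the median 63.1 and the highest 72.1. Group means ± SD (n = 8 each) were 28.5 ± 14.3 CPM for adropin and 57.1 ± 18.2 CPM for saline. All 8 adropin mice were below the saline median and 6 of 8 saline mice were above the highest adropin mouse, yet the ranges overlapped. Saline mouse 5_4 had the lowest saline value and adropin mouse 5_5 the highest adropin value. Adropin mouse 1_3 (39.12 CPM) was also just above saline mouse 6_1 (39.10 CPM). The log2 fold change was -0.997 (standard error 0.28, edgeR unadjusted p = 0.00221, adjusted p = 0.874), and the two-sided exact permutation test over all divisions of the 16 mice into 8 and 8 gave p = 0.00886. Without mouse 5_4 it was -1.12, and without mouse 5_5 -1.21.

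Fosb encodes FOSB and its truncated splice form ΔFOSB, a stable protein that builds up with repeated stimulation, and these forms were not separated in the counts. It lies on chromosome 7 from 19302696 to 19310051 on the minus strand. Its normalized CPM ran from 16.5 through a median of 20.4 to 29.95 in adropin mice and from 19.0 through 29.97 to 40.9 in saline mice. All 8 adropin mice were below the saline median, the highest of them, 5_5, only just. The means of 20.9 ± 4.10 and 30.2 ± 6.83 CPM (SD, n = 8 each) differed by -0.53 on the log2 scale (standard error 0.14, edgeR adjusted p = 0.874), with an exact permutation p of 0.00622. This 1.44-fold difference did not reach 1.5-fold with all mice, but did so without saline mouse 5_4 (-0.60) or without adropin mouse 5_5 (-0.61).

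Fosl2 encodes FRA-2, a FOS protein without the strong transactivation domain of FOS and FOSB. It lies on chromosome 5 from 32135801 to 32157842 on the plus strand. Normalized CPM was 22.5 in the lowest, 39.6 in the median and 43.7 in the highest adropin mouse, and 27.3, 49.3 and 61.9 in the corresponding saline mice. The adropin group ended below the saline median, but at the low end the groups overlapped, with saline mouse 5_4 lower than 7 of 8 adropin mice. The log2 fold change was -0.35 (standard error 0.15, edgeR unadjusted p = 0.0314, adjusted p = 0.874), whereas the exact permutation p was 0.0730. The unadjusted p rose above 0.05 when any 1 of 6 mice was left out (adropin 3_3, 4_1 or 4_3, saline 5_3, 6_2 or 7_1), with fold changes from -0.33 to -0.26.

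Junb, the rapidly induced JUN gene whose product is a weaker activator than JUN on many sites, lies on chromosome 8 from 84974484 to 84978718 on the minus strand. Its normalized CPM was 79.1 in the lowest, 101 in the median and 185 in the highest adropin mouse. The saline mice ranged from 119.8 through a median of 172 to 216. In 6 of 8 adropin mice Junb was below the lowest saline mouse, whereas adropin mouse 5_5 had a higher level than 5 of the 8 saline mice. The means of 111 ± 35.5 and 173 ± 33.6 CPM (SD, n = 8 each) differed by -0.64 on the log2 scale (standard error 0.16, edgeR unadjusted p = 0.00103, adjusted p = 0.874, exact permutation p = 0.00373). Leaving out adropin mouse 2_4 or 4_1 brought the fold to just under 1.5 (log2 -0.58 at the smallest), so that Fos alone then passed the cut-off. Exons of Junb share 173 of 2301 bases with Prdx2 on the opposite strand, at 145 to 213 CPM in these samples, and whether counting used strand was not stated, so that the Junb count is uncertain to that extent.

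Jun, the founding JUN gene, lies on chromosome 4 from 95049034 to 95052222 on the minus strand. The adropin mice had from 47.6 to 65.9 normalized CPM with a median of 54.0, and the saline mice from 46.5 to 94.0 with a median of 59.4. The adropin range lay wholly inside the saline range, and the highest saline mouse, 6_1, stood well above the next at 68.7. The log2 fold change of -0.17 (standard error 0.12) was within the spread between mice (exact permutation p = 0.266), and it was -0.06 without mouse 6_1. Jun shares 232 of its 3189 exon bases with its antisense gene Junos, which had at most 1.19 CPM.

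Jund, a steadily expressed JUN gene that restrains proliferation in several cell types, lies on chromosome 8 from 70698949 to 70700616 on the plus strand. Normalized CPM was 115 in the lowest, 127 in the median and 143 in the highest adropin mouse, against 121, 138 and 177 in saline mice. The highest value of all, 177 CPM, belonged to saline mouse 5_4, the mouse with the lowest Fos, Fosb and Fosl2 of its group. The log2 fold change of -0.15 (standard error 0.074) missed the threshold (edgeR unadjusted p = 0.0559, exact permutation p = 0.0729) and was -0.10 without mouse 5_4. An unadjusted p below 0.05 was reached under 4 other settings and in 5 of the 16 fits that left out a mouse, with fold changes from -0.19 to -0.16. Of the exon bases of Jund 52.6% (877 of 1668) are shared with Gm11175 on the opposite strand, which was listed at 0 in all 16 mice. If counting did not use strand, reads in these shared bases would not be unambiguous, so that the level of Jund, also per kilobase, is uncertain and may be understated.

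Read across the genes, 5 of 8 adropin mice were below the saline median for all 6 members. Mouse 5_5 was below it for 3 of 6. Among saline mice, 5_4 and 6_1 were each below the saline median for 5 of 6 members and 6_2 for none. All 8 adropin mice lay below the saline median for Fos, Fosb and Fosl2 (3 of 6 members), a pattern found for 2.17% of all genes tested.

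**Figure D2:**
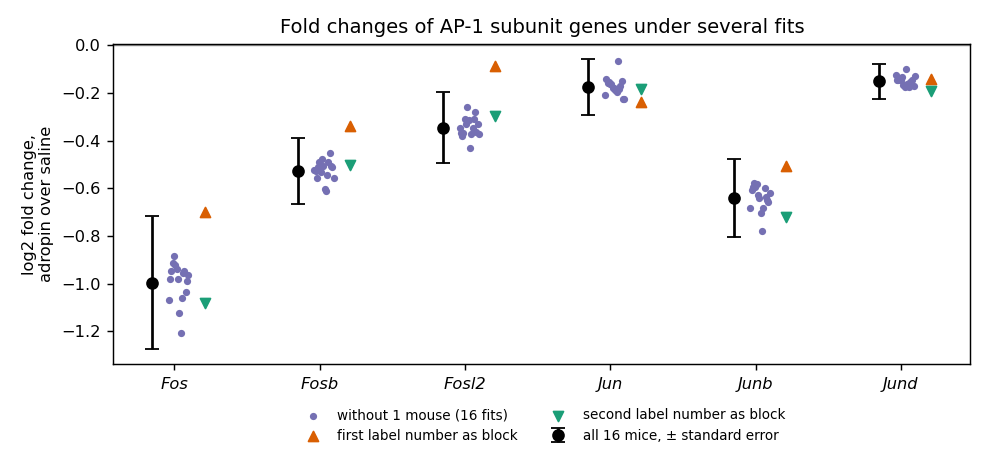
Log2 fold change (adropin over saline) of each AP-1 subunit gene in edgeR with all 16 mice (black, ± standard error), in 16 fits that each leave out 1 mouse (purple), and with the first (orange) or second (green) label number as a block. All points lie below 0, and with the first number as a block Fosl2 is at -0.09.

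The changes were unequal in size, but the differences between members were not separable after adjustment. The log2 ratio of Fos to Jund in a mouse averaged -2.31 ± 0.686 with adropin against -1.40 ± 0.730 with saline (SD, n = 8 each; exact permutation p = 0.0260, adjusted p = 0.0783 over the 15 pairs of members). Junb to Jund gave -0.26 ± 0.401 and 0.27 ± 0.365 (SD, n = 8 each; exact permutation p = 0.0196, adjusted p = 0.0783). The ratio of Fos to Junb, the 2 members past the cut-off, differed by -0.37 (exact permutation p = 0.0612, adjusted p = 0.119). The ratio of Jun to Jund was nearly equal in the groups, at -1.22 ± 0.191 and -1.21 ± 0.420 (SD, n = 8 each; exact permutation p = 0.966). No pair had an adjusted p below 0.05.

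Per kilobase of exon, Jund and Junb had the highest levels and Fosl2 and Fosb the lowest. Here CPM was divided by the length of all exons of the gene joined together, which counts bases that not every transcript holds. In saline mice Jund was at 85.2 ± 11.3 CPM per kilobase, Junb at 75.1 ± 14.6, Fos at 24.3 ± 7.73, Jun at 19.5 ± 4.64, Fosl2 at 4.89 ± 1.12 and Fosb at 4.84 ± 1.09 (SD, n = 8 each). In adropin mice Jund was at 76.7 ± 5.46, Junb at 48.1 ± 15.4, Jun at 17.3 ± 2.09, Fos at 12.1 ± 6.08, Fosl2 at 3.84 ± 0.732 and Fosb at 3.36 ± 0.657 (SD, n = 8 each). Neighbours within the pairs Jund and Junb, Fos and Jun, and Fosl2 and Fosb overlapped in both groups. By joined exons no mouse of 1 pair reached the range of the next pair within a group, which need not hold for another length. By the longest coding transcript in place of joined exons, Junb in saline mice (95.5 CPM per kilobase) was above Jund (85.2), and Fosb (7.99) above Fosl2 (7.24), while in adropin mice the order stayed (Jund 76.7, Junb 61.2, Fosl2 5.69 and Fosb 5.54), so the order within these pairs in saline mice depends on the length used.

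The summed per-kilobase level of the 6 genes was 161 ± 25.4 CPM per kilobase with adropin against 214 ± 21.3 with saline (SD, n = 8 each). FOS genes made up 11.7% ± 2.57 of this sum with adropin against 15.8% ± 3.74 with saline (SD, n = 8 each), and Fos alone 7.24% against 11.2%. Jund accounted for 48.2% and 40.1% and Junb for 29.2% and 34.9%. These shares are RNA shares and say nothing of protein or of dimers formed.

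Members also differed in how much they varied between mice of 1 group. The within-group SD of the log2 level was 0.655 for Fos, larger than that of 98.4% of genes tested, against a median of 0.196 over all genes. Junb, Fosl2 and Fosb followed at 0.360, 0.345 and 0.303 (above 86.3%, 84.4% and 78.0% of genes). Jun was at 0.254 (67.6%), and Jund, at 0.149, varied less than the median gene (31.1%). Between the lowest and the highest mouse Fos spanned 4.24-fold in adropin and 3.53-fold in saline, and Jund 1.24-fold and 1.47-fold.

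Between mice of the same treatment, Fos and Junb rose and fell together in each group, Fosb and Fosl2 did so over all mice and in the saline group, and no pair with Jun passed the test. Group means of the log2 level were subtracted before these correlations, so that the treatment contrast does not enter them. For Fos and Junb Pearson's r was 0.901 over 16 mice (permutation p = 1e-05, the smallest that 100000 permutations can give, adjusted p = 0.00015 over 15 pairs) and Spearman's rho was 0.932 (permutation p = 1e-05). It held in each group, with r = 0.913 in adropin (exact permutation p = 0.00144) and 0.900 in saline (exact permutation p = 0.000521). When the 2 mice at the greatest distance from the Fos median were left out, r was 0.901. Fosb and Fosl2 had r = 0.853 and rho = 0.879 (permutation p = 0.00014 and 7e-05, adjusted p = 0.00105 and 0.000525), with r = 0.809 without the 2 farthest mice. In saline mice r was 0.983 (exact permutation p = 9.92e-05, adjusted p = 0.00149), whereas in adropin mice it was 0.657 and did not pass (exact permutation p = 0.104, adjusted p = 0.335). Whether r differed between groups was not tested.

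A further 2 pairs had an adjusted p below 0.05 for r and not for rho. Fos and Fosb had r = 0.710 (permutation p = 0.00318, adjusted p = 0.0159) but rho = 0.503 (permutation p = 0.0504, adjusted p = 0.252). Fosl2 and Jund were negatively related, with r = -0.669 (permutation p = 0.00784, adjusted p = 0.0294) and rho = -0.391 (permutation p = 0.176). With the 2 mice most distant from the Fosl2 median left out r was -0.274, so that this relation rests on those mice. Without saline mouse 5_4 only Fos with Junb (0.902) and Fosb with Fosl2 (0.767) kept an adjusted p below 0.05, and Fos with Fosb had r = 0.547. Fos with Fosb also missed it without adropin mouse 5_5 (0.613), and Fosl2 with Jund without adropin mouse 4_3 (-0.635) or saline mouse 8_3 (-0.671). For Fos and Fosl2 r was 0.604 (permutation p = 0.0192, adjusted p = 0.0576) and rho 0.429 (permutation p = 0.0998). Of the 15 pairs 10 had a positive and 5 a negative r.

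**Figure D3:**
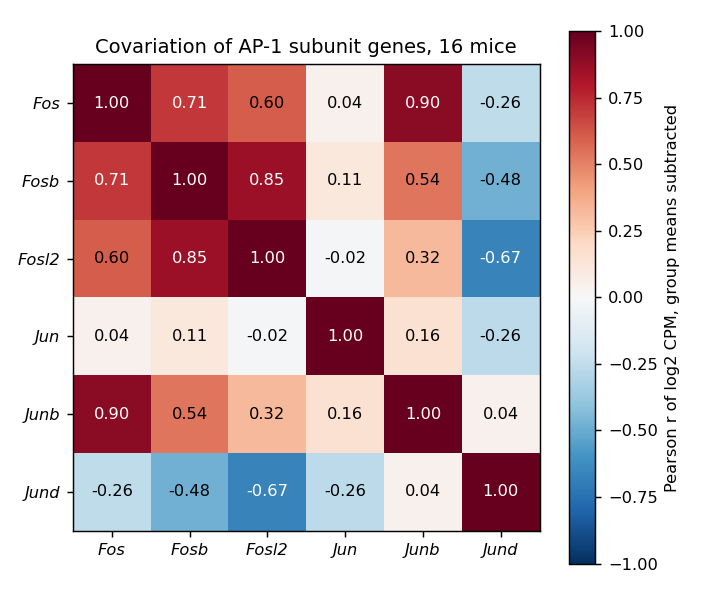
Pearson r of log2 TMM-normalized CPM between each pair of AP-1 subunit genes over 16 mice, after the group means were subtracted, from -1 (blue) to 1 (red). Fos with Junb (0.90) and Fosb with Fosl2 (0.85) are the highest pairs, and every r of Jun lies between -0.26 and 0.16.

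**Figure D4:**
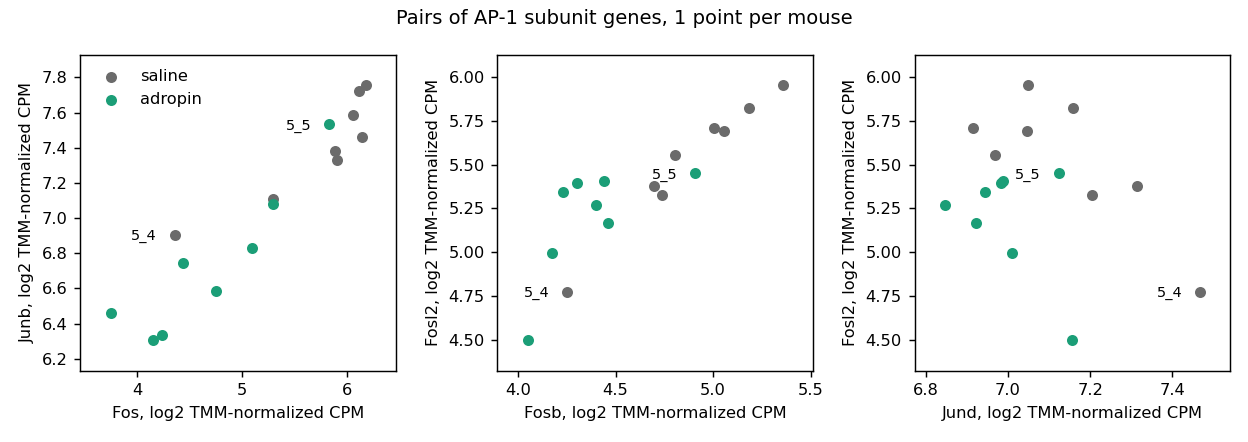
Log2 TMM-normalized CPM of 3 pairs of AP-1 subunit genes with 1 point per mouse (saline grey, adropin green), group means not subtracted, and with saline mouse 5_4 and adropin mouse 5_5 named. Fos and Junb lie along 1 line, with 5_4 among the adropin mice and 5_5 among the saline mice, and in the panel of Jund and Fosl2 mouse 5_4 stands at the lower right.

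The 5 genes with the highest r to each member were read from all 14948 others over the 16 mice with group means subtracted, so the values are maxima of many and carry no p. For Fos they were Ccn1 (0.949, a matricellular growth factor response gene), Arc (0.926, a synaptic plasticity gene), Btg2 (0.918, an antiproliferative gene), Dusp1 (0.906, a MAP kinase phosphatase) and Junb (0.901). For Junb they were Fos (0.901), Btg2 (0.879), Ccn1 (0.877), Arc (0.844) and Ier2 (0.834). Fosb was most like Dtx4 (0.931), Oprd1 (0.899), Bicra (0.892), Atn1 (0.890) and Tnk2 (0.885). Fosl2 was most like Map3k9 (0.974), Tet3 (0.972), Hook3 (0.966), Igsf9b (0.962) and Ankrd52 (0.956). Jun was most like Arsj (0.875), Rerg (0.859), Gas2l1 (0.851), Trps1 (0.848) and Parvb (0.845), and Jund most like Gm10269 (0.917), Castor2 (0.916), Cox4i1 (0.910), Rpl14 (0.905) and Fbxo36 (0.904).

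A high r was more common for some members than for others. With Fosl2 2.5% of genes had r above 0.858, with Jund above 0.807, with Fosb above 0.745 and with Fos above 0.672, but with Junb the same share lay above 0.512. Against this, Junb ranked 5 of 14948 by r with Fos and Fos ranked 1 with Junb. Fosl2 ranked 20 by r with Fosb, but Fosb ranked 417 by r with Fosl2.

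The list of other activity-induced genes, which holds no member, was lower in the adropin group for most of its genes. Of 22 genes tested 16 were lower and 0 higher at an unadjusted p below 0.05, beside 2.13% and 1.86% of all genes, and 8 passed the cut-off in this direction, beside 0.308%. When the first number of the labels was fitted as a block, 3 of the 22 were lower at an unadjusted p below 0.05, where 327 of all 14949 genes had such a p in either direction. Their median log2 fold change was -0.52, beside -0.002 over all genes, of which 50.8% were below 0. The lowest p were those of Egr4 and Egr2, zinc finger factors of the early growth response family (-0.55 and -1.19), Gadd45b, a stress and demethylation gene (-0.53), and Dusp5, a phosphatase of ERK (-0.75), none with an adjusted p below 0.387 in edgeR. Dusp1 and Ccn1 in this list were named with Fos in the study's AP-1 network on these mice and are not independent of it. The whole list was chosen with earlier results of these data known, so its counts are a description and not independent evidence. Between mice, 15 of the 22 genes were correlated with Fos at an adjusted p below 0.05, with r from 0.578 (Dusp5) to 0.949 (Ccn1), and 12 by rho. Of the 22, 11 had an r with Fos above 0.672, the value that 2.5% of all genes exceeded. For Ccn1 rho was 0.891 (permutation p = 4e-05 for r and 2e-05 for rho). Klf4 (0.056), Homer1 (0.110) and Nr4a2 (-0.244) were among the 7 that were not, Klf4 although it was itself lower in the adropin group (-0.33). Above the value that 2.5% of all genes exceeded for the member in question were 13 of the 22 for Junb, 4 for Fosb, 1 for Fosl2 (Egr3, r = 0.920) and 0 for Jun and Jund. The median r with the 22 genes was 0.668 for Fos, 0.569 for Junb, 0.624 for Fosb and 0.487 for Fosl2, where a high r was common among all genes for Fosb and Fosl2. These are descriptions over genes that share the same 16 libraries.

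Other basic leucine zipper genes were few, and 0 calls in lists of this size are near the 2.13% and 1.86% of all genes that were lower and higher. Of 9 dimer partners of AP-1 6 were tested (Atf3, Batf and Batf2 did not pass the filter), and 0 of 6 had an unadjusted p below 0.05 in edgeR in either direction, with a median log2 fold change of 0.05. Fosl1, the gene of the FOS protein FRA-1, was at 4.32 ± 0.783 and 4.24 ± 1.03 CPM (SD, n = 8 each), a difference of 0.03 on the log2 scale. The lowest p in this list belonged to Atf4 (-0.09), Atf2 (0.08), Jdp2 (0.10) and Atf7 (0.07), genes of factors that bind JUN proteins or related sites. Of the Maf factors 5 of 7 were tested and 0 had an unadjusted p below 0.05, with log2 fold changes of -0.16 for Maff, -0.06 for Mafk and -0.04 for Maf.

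Upstream of AP-1, 19 of 19 kinases and scaffolds of the ERK, JNK and p38 pathways were tested, and 0 were lower and 1 higher at an unadjusted p below 0.05, beside 2.13% and 1.86% of all genes, so that 1 call in 19 is no result about the list. It was Mapk10, the neuronal JNK gene (0.14 on the log2 scale, edgeR adjusted p = 0.874). Rps6ka2 (0.21), Map2k5 (0.07) and Rps6ka3 (0.12), an ERK-activated kinase, an ERK5 activator and a further ERK-activated kinase, did not pass. Among regulators of the decay of Fos and Jun RNA and protein, 12 of 13 symbols were tested and 0 had an unadjusted p below 0.05. Trib1, an adaptor of the ubiquitin ligase COP1, had the largest difference (-0.40, 20.7 ± 6.19 against 27.4 ± 8.07 CPM, SD, n = 8 each). Zfp36l1 (-0.15), Zfp36 (-0.16) and Fbxw7 (0.07) followed.

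Of 20 genes known as AP-1 targets 16 were tested, and 3 were lower and 0 higher at an unadjusted p below 0.05 with none past the cut-off, beside 2.13% and 1.86% of all genes. With the block on the first number 1 of the 16 was lower. The 3 were Vgf, a secreted neuropeptide precursor (-0.13), Agt, the angiotensin precursor made by astrocytes (-0.48), and Bdnf, a neurotrophin (-0.15). Th, the rate-limiting enzyme of catecholamine synthesis, was next (-0.92, standard error 0.45) and did not pass, with saline mice from 0.431 to 9.58 CPM and adropin mice from 0.804 to 2.32. The median over the list was -0.01, near that of all genes. Agt and Th were also named in the study's AP-1 network on these mice. As the list was chosen with earlier results of these data known, its count is not independent evidence.

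**Figure D5:**
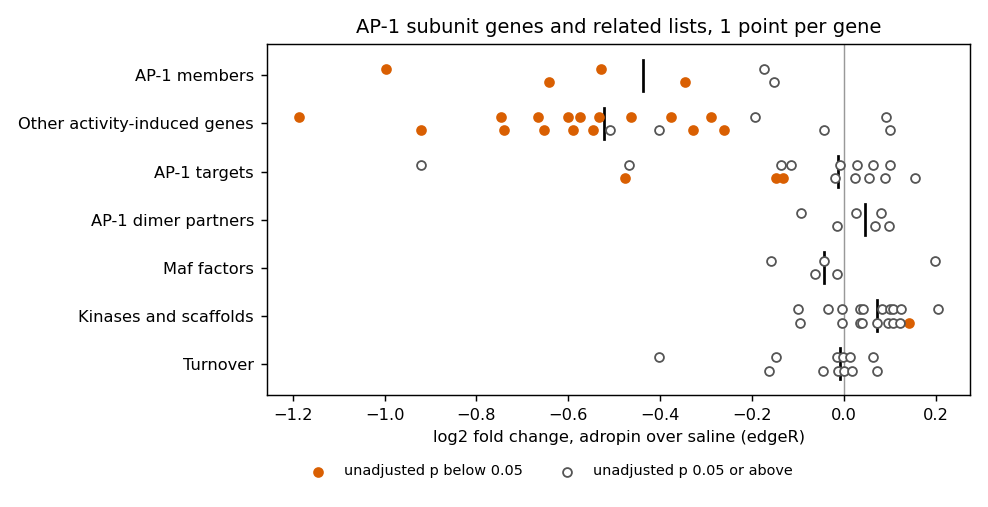
Log2 fold change (adropin over saline, edgeR) of each gene tested in the AP-1 subunit group and in 6 related lists, with 1 point per gene, filled orange at an unadjusted p below 0.05 and open otherwise, and a black line at the median of each list. The AP-1 subunit genes (median -0.44) and the other activity-induced genes (-0.52) lie to the left of 0, and the other lists around it.

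The library totals ran from 35026503 to 70314050 counts, with 567 to 10392 counts for a member in a mouse. The 5 neuronal markers were detected in every mouse, with a sum of 4818 to 6375 CPM. Of 5 cerebellar markers 3 passed the filter, and the 5 together had 36.3 to 79.6 CPM in 15 mice and 369 in saline mouse 8_3. Markers of choroid plexus (5 of 5 detected, sum 11.1 to 73.4 CPM in adropin and 12.6 to 2460 in saline, highest in mouse 8_3 with the next at 328) had a lower score in the adropin group (exact permutation p = 0.0413), while their log2 sum did not pass (exact permutation p = 0.338). Hippocampal markers (6 of 6 detected, sum 168 to 291 CPM in adropin and 178 to 345 in saline) had a difference in score of -0.56 (exact permutation p = 0.0544) and in log2 sum of -0.16 (exact permutation p = 0.282). Without mouse 8_3 the log2 fold change was -0.96 for Fos and -0.62 for Junb, both past the cut-off. Whether the marker differences bear on these fold changes was not tested. The scores of neurons, striatum and cerebellum and the library total, mitochondrial share and Gm42418 level had an exact permutation p from 0.163 to 0.845 between groups.

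Within groups, 48 relations of the members to these measures were computed, and 3 had an adjusted p below 0.05 for r. Fosl2 rose with the level of Gm42418, a gene at a ribosomal RNA sequence (r = 0.706, rho = 0.618, permutation p = 0.0015 and 0.0137), and fell with the mitochondrial percentage of counts (r = -0.758, rho = -0.629, permutation p = 0.00221 and 0.0127). Jund rose with the mitochondrial percentage (r = 0.806, rho = 0.594, permutation p = 0.00127 and 0.0259). Each had an adjusted p of 0.0354 for r, but none passed for rho (permutation test, adjusted p = 0.240, 0.240 and 0.249). Without the 2 farthest mice r was 0.538, -0.513 and 0.552. Fos and Junb had no relation at this threshold, their highest r being those with the log2 library total (0.516 for Fos, rho = 0.474, permutation p = 0.0549 and 0.0871, and 0.553 for Junb, rho = 0.459, permutation p = 0.0505 and 0.0893, adjusted p = 0.274 for each r). The r of Fos was 0.482 with Gm42418 and -0.315 with the mitochondrial percentage, and that of Junb 0.445 with hippocampal markers and -0.058 with the mitochondrial percentage. For Jun and the hippocampal markers r was 0.561 over all mice (rho = 0.597, permutation p = 0.0451 and 0.0236, adjusted p = 0.274 for r). It was 0.951 in adropin mice (rho = 0.976, exact permutation p = 0.000273 and 0.000397, adjusted p = 0.0131 for r) and 0.432 in saline mice (rho = 0.357, exact permutation p = 0.293 and 0.389), and the difference between groups was not tested. The part of these measures in the fold changes was not tested.

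Mice of both groups occur under only 3 values of the first label number, whose meaning is not given. Under number 2 (2 adropin, 1 saline) the difference in log2 level was -1.72 for Fos, -1.31 for Junb and 0.07 for Fosl2. Under number 7 (1 against 1) it was -1.05 for Fos, -1.13 for Fosb and -0.64 for Junb. Under number 5 (1 adropin, 2 saline) it was in the opposite direction, at 0.71 for Fos, 0.39 for Junb and 0.28 for Fosb, this number holding both 5_4 and 5_5. With so few mice these are values without a test.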

How the data were processed

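RNA from brain tissue of 16 mice was sequenced in paired reads after poly-A selection. Alignment by the authors used STAR and the primary assembly of Ensembl release 76 (GRCm38). The counts they deposited are raw featureCounts values, each gene's reads that aligned uniquely and unambiguously. They also deposited CPM, which are the counts scaled to library totals that lie 0.0961% to 0.11% above the sums used here. Strand use is not given in the sources used here. Repeated entries of 1 gene were dropped (40757 entries, 40481 genes).

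TMM factors were calculated in edgeR 4.0.16 (R 4.3.3), and genes above 1 CPM in at least 7 mice were kept, without 355 ribosomal RNA genes. The quasi-likelihood test of edgeR was applied to 14949 genes, with p adjusted over all of them by the Benjamini-Hochberg method and each labelled mouse taken as 1 replicate. Normalized CPM are TMM-scaled, and log2 levels use a prior count of 2. For single values an exact permutation test (two-sided) used every division of the mice into 8 and 8. Correlations used 100000 permutations within groups, or all 40320 pairings within a group of 8. Marker scores are mean z-scored log2 levels. Exon lengths and coordinates are GENCODE M21's on GRCm38.

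Alternatives were limma-voom and limma-trend on log2(CPM + 1) (limma 3.58.1), DESeq2 1.42.0, other size factors and filters, label numbers as blocks and leaving out each mouse. The fit was tested on simulated counts. Named genes are the 6 members, up to 4 genes of each list with the lowest p and the 5 genes most like each member. The result for 1 gene that this rule names is left out here. Klf4, Homer1, Nr4a2 and Fosl1 were named after their values were seen. The members and lists were chosen with earlier results of these data known, and the pairwise ratios and the second gene length were added after the data were seen.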

Additional observations from a re-analysis of the deposited data

Results flagged for a closer look

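Among the 12 sets of 8 values formed by 6 genes and both groups, 2 had a mouse standing far from the rest by Dixon's test at the 95% level, which chance alone gives in about 1 group in 20. Fosb was at 29.95 normalized CPM in adropin mouse 5_5, where the next adropin mouse was at 22.01. Jun was at 94.0 normalized CPM in saline mouse 6_1, where the next saline mouse was at 68.7.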

How the results depend on the processing

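Every fold change of the 6 members stayed below 0 under all settings run. With the first label number as a replicate block, 0 members passed the cut-off, and the log2 fold changes were -0.70 for Fos, -0.34 for Fosb, -0.087 for Fosl2 and -0.51 for Junb (edgeR unadjusted p = 0.107, 0.174, 0.702 and 0.0797). That fit compares groups only among the 8 mice with a first number shared between groups. For same-numbered mice of different groups, r of deviations ran from -0.272 to 0.217 over 5 pairs for the first number. It ran from -0.56 to 0.299 over 17 pairs for the second. Such pairs leave out same-numbered mice of 1 group and are few for the first number, so they do not settle what the numbers mark. With the second number as a block Fosl2 was at -0.30 (unadjusted p = 0.0902) and Jund at -0.19. Jund reached an unadjusted p below 0.05 also in DESeq2 (-0.16), limma-trend (-0.16) and by library size alone (-0.17). The cause of these changes was not tested.

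Leaving out each mouse gave 1 to 3 members past the cut-off, 2 to 6 correlated pairs and ranges of the log2 fold change from -1.21 to -0.88 for Fos, -0.61 to -0.45 for Fosb, -0.43 to -0.26 for Fosl2, -0.22 to -0.06 for Jun, -0.78 to -0.58 for Junb and -0.18 to -0.10 for Jund. The 19 genes of the related lists lower at an unadjusted p below 0.05 became 15 to 22 without 1 mouse and 20 to 23 under the other tools, size factors and filters. With the first and second label number as a block, which was added for this count after the data were seen, they became 4 and 17. Under the other tools, size factors and filters 2 members passed, and 4 pairs stayed correlated under other scalings. Each member had at least 567 counts in each mouse, and whether depth bears on the differences was not tested.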
